A study of Mus musculus with 12 samples.

Results

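The genes described here are the Wnt ligands, their Frizzled receptors (Fzd) and the secreted inhibitors of the Dickkopf (Dkk) and secreted Frizzled-related (Sfrp) families. They were chosen by symbol, with 1 probe set for each gene, the one with the highest mean signal over 12 arrays, and were kept if that probe set reached a signal of 20 on at least 1 array. Of 38 such genes on the array, 28 were kept, among 13650 genes that reached 20 in all. Kept were 11 of 19 Wnt genes, all 10 Frizzled genes, 3 of 4 Dkk genes and 3 of 4 Sfrp genes. The last of the 28 is Fzd10os, a noncoding gene next to Fzd10 whose symbol meets the same rule and which encodes no receptor. Just inside the limit were Wnt3a with a highest signal of 20.3, Wnt11 with 29.3 and Wnt6 with 30.4. Just outside it were Sfrp5 with 17.5, Wnt9b with 15.2 and Wnt2 with 15. Dkk4, Wnt1, Wnt10a, Wnt10b, Wnt2b, Wnt3 and Wnt8b were also not kept. A gene that reached 20 through 1 group alone was more apt to differ between groups. Counts of called genes are thus read here only beside the share called among all genes.

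Transcripts of mouse cells were measured on Affymetrix arrays in a series about neural stem cells induced directly from other cells. Neurospheres are floating spheres of cells that grow from neural stem and progenitor cells. Neurospheres from the embryonic (E14) ganglionic eminence (GE), a ventral forebrain zone in which neural progenitors divide, served as the neural reference (1 array), and skin fibroblasts of adult mice were measured once. Pluripotent cells were the induced pluripotent stem (iPS) cell line 38C2 and the embryonic stem (ES) cell line EB3 (1 array each), and primary and secondary neurospheres were grown from both lines (1 array for each line and stage). Adult fibroblasts gave 2 neurosphere arrays, replicate 1 with EGF plus cAMP in the medium and replicate 2 with LIF. Embryonic fibroblasts gave 2 more, replicate 3 with LIF and replicate 4 with LIF plus cAMP. Cells other than the ES and iPS lines were of the strain C57BL/6, and all neurospheres were grown in a medium called MHM. How the fibroblasts were turned into neurospheres, and with which genes, is not in the labels, and embryonic fibroblasts were not among the samples.

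Wnt proteins are lipid-modified signals that cells secrete with the help of Porcn, which attaches the lipid, and Wls, which carries them to the surface. They bind Frizzled receptors, either with the co-receptors Lrp5 and Lrp6, which leads to β-catenin acting in the nucleus, or along routes that shape cell polarity and movement without β-catenin. Sfrp proteins resemble the ligand-binding part of a Frizzled receptor and can hold Wnts away from it, whereas most Dickkopf proteins act on the Lrp co-receptors. In the embryonic forebrain the pathway is known for patterning and for the growth of neural progenitors, and in ES cells for supporting self-renewal.

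Values are MAS5 signals with a trimmed mean of 100 per array, and between 40.5% and 49.1% of probe sets reached 20 on an array. Differences between groups are taken on log2(signal + 5), with their standard error (SE), a scale that understates the change of dim genes. A gene was called in a comparison if its limma adjusted p was under 0.05 over all genes. No group held more than 2 arrays, which limits the precision, and the spread of a group with 1 array was assumed to equal that of the others. Whether arrays of a group are separate cultures is not stated, so p-values reflect only how far these arrays spread. In such bulk samples fewer cells of a type and less RNA per cell cannot be told apart.

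Cell type markers did not follow the labels on all arrays. The summed signal of 8 neural progenitor markers was 17432.7 on the GE array, 9158.1 to 13429.3 on the iPS- and ES-derived neurospheres, and 856.3 to 2393.9 on the 4 fibroblast-derived arrays. In the iPS cells and ES cells it was 3514.9 and 3541.5, of which Sox2 alone gave 3352.6 and 3417.7. Sox2 was at 1825.8 and 2092.3 on the embryonic-derived pair and 85.6 and 791.4 on the adult-derived pair, against 1907.6 to 3703.2 on the iPS-, ES- and GE-derived neurospheres. The other markers of the list were at 0.7 to 141.3 on the embryonic-derived pair, with Hes5, a Notch target of neural progenitors, lowest at 0.7 and 1.9. The summed signal of 8 pluripotency markers was 2793.9 to 12550.6 on the fibroblast-derived arrays against 20762.2 and 22045.8 on the iPS cells and ES cells, and Pou5f1, which encodes Oct4, stood at 1787 to 2217.8 on these 4 arrays. The ES-derived primary array had a pluripotency sum of 9057.2 and the iPS-derived one of 251. The ES-derived secondary array had a sum of 10179.7 over 10 fibroblast markers, against 1308.2 on the iPS-derived one and 39379.1 in the fibroblasts. Placental markers summed to 1635.4 and 797.5 on the embryonic-derived pair and to at most 35.8 elsewhere. What part these cells have in the results that follow was not tested. Calls were refitted without each array in turn, other than the single array of a comparison's GE or fibroblast side.

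Over the 7 groups together, 17 of the 28 genes differed between groups by the F-test, or 60.7%, beside 61.6% of all genes. The 11 not called were Wnt3a, Wnt5b, Wnt6, Wnt8a, Wnt11, Fzd8, Fzd10, Fzd10os, Dkk1, Sfrp1 and Sfrp4. With the line of origin (iPS or ES) as a replicate block, Sfrp1 (adjusted p = 0.00711 against 0.221 without it) and Fzd8 (0.0168 against 0.0847) were called as well.

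**Figure D1:**
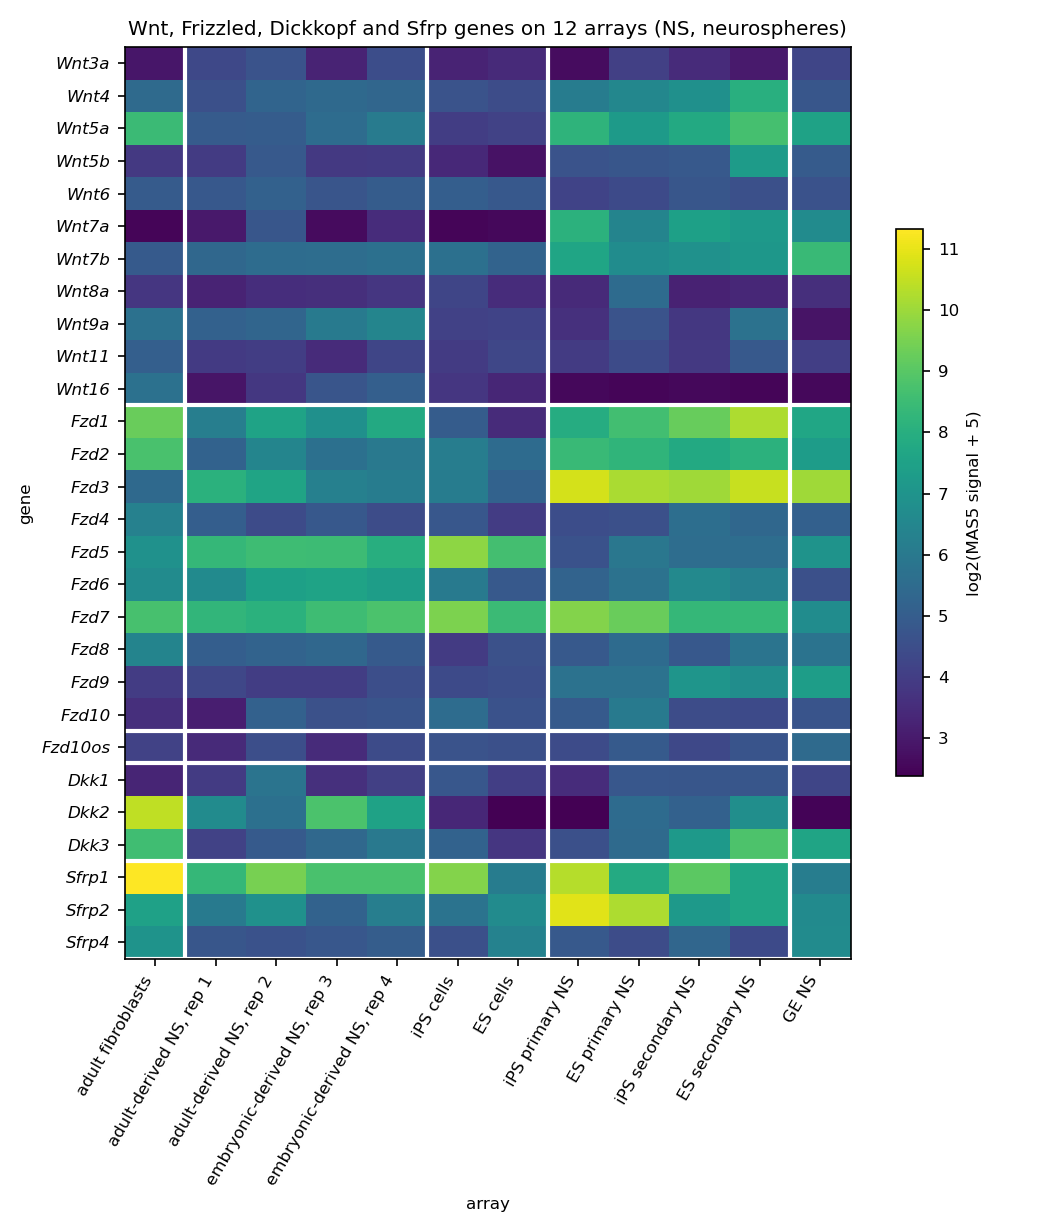
Signals of the 28 genes (rows, by role) on the 12 arrays (columns, by group, NS for neurospheres), as colour on the scale of log2(MAS5 signal + 5). Wnt7a, Fzd3 and Fzd9 are brightest on the primary, secondary and GE neurospheres, while Fzd5 is brighter on the pluripotent and fibroblast-derived arrays.

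Several ligands and receptors that were high in the iPS-, ES- and GE-derived neurospheres were low in the fibroblast-derived neurospheres. Against the secondary neurospheres, 13 of 28 genes were called, 2 higher and 11 lower in the fibroblast-derived neurospheres, beside 33.6% of all genes, of which 2314 were higher and 2277 lower. Those lower were Wnt4, Wnt5a, Wnt5b, Wnt7a, Wnt7b, Fzd1, Fzd2, Fzd3, Fzd9, Dkk3 and Sfrp2, and those higher were Wnt16 and Fzd5. Against the primary neurospheres, 14 genes were called, 5 higher and 9 lower, beside 29.9% of all genes. Against the GE neurospheres, 12 were called, 5 higher (Wnt9a, Wnt16, Fzd6, Fzd7, Dkk2) and 7 lower (Wnt5a, Wnt7a, Wnt7b, Fzd2, Fzd3, Fzd9, Dkk3), beside 28.4% of all genes. The median difference of the 28 genes was -0.44, -0.43 and -0.36 in these comparisons, and that of all genes was 0.05, 0.04 and 0.07. Without the iPS-derived primary array, 8 of the 14 calls against the primary neurospheres were kept, and without the ES-derived secondary array 7 of the 13 against the secondary ones, and each refit added 1 other gene (Wnt8a and Wnt9a). All 5 comparisons with the fibroblast-derived neurospheres share those 4 arrays.

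Against the adult fibroblasts, 7 of 28 genes were called, beside 23.2% of all genes. Fzd3 was higher and Wnt5a, Wnt16, Fzd2, Fzd4, Dkk3 and Sfrp4 were lower in the fibroblast-derived neurospheres, and the median was -0.27 against 0.22 over all genes. The split of calls depended on the scaling here. With arrays set to a common median, 0 genes were higher and 11 lower, and with quantile normalization 1 was higher and 8 lower, while the share of higher calls among all genes went from 64.7% to 35.4% and 54.2%. Leaving out embryonic-derived replicate 3 or replicate 4 left 3 of the 7 calls each, and leaving out adult-derived replicate 1 left 4.

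Against the pluripotent cells, 6 of 28 genes were called, beside 30.2% of all genes, all higher in the fibroblast-derived neurospheres (Wnt5a, Wnt9a, Fzd1, Fzd3, Fzd6, Dkk2). The split again depended on the scaling, with 3 higher and 2 lower after quantile normalization and 4 higher and 2 lower at a common median, while the share of higher calls among all genes went from 67.6% to 47.3% and 38.8%. Without the ES cell array, 0 of these 6 calls were kept, and the single gene called was another, Fzd7. The adult-derived and embryonic-derived pairs were compared with each other, and 0 of 28 genes were called by limma (2 at an unadjusted p under 0.05), beside 0.469% of all genes. The media of these pairs also differed, as given above.

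Along the iPS and ES lines, primary neurospheres differed from the pluripotent cells in 10 of 28 genes, beside 30.1% of all genes. Wnt4, Wnt5a, Wnt7a, Wnt7b, Fzd1, Fzd2, Fzd3, Fzd9 and Sfrp2 were higher in the primary neurospheres and Fzd5 was lower. After quantile normalization 8 were higher and 3 lower, while the share of higher calls among all genes went from 64.1% to 50.6%, and to 48.8% at a common median. Secondary against primary neurospheres gave 1 call (Sfrp2), beside 2.78% of all genes, and secondary against GE neurospheres gave 1 call (Wnt4), beside 3.89%. At an unadjusted p under 0.05 these comparisons had 6 and 9 genes. Neither call held without the ES-derived secondary array, and the other arrays on which they rest are given with each gene. Between the pluripotent cells and the adult fibroblasts, 9 genes were called, beside 39.1% of all genes, with Fzd5 higher in the pluripotent cells and Wnt5a, Wnt16, Fzd1, Fzd2, Fzd4, Fzd8, Dkk2 and Dkk3 lower. In all, 73 calls were made, which named 20 of the 28 genes, and 40 of the 73 were made again under every alternative tried.

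**Figure D2:**
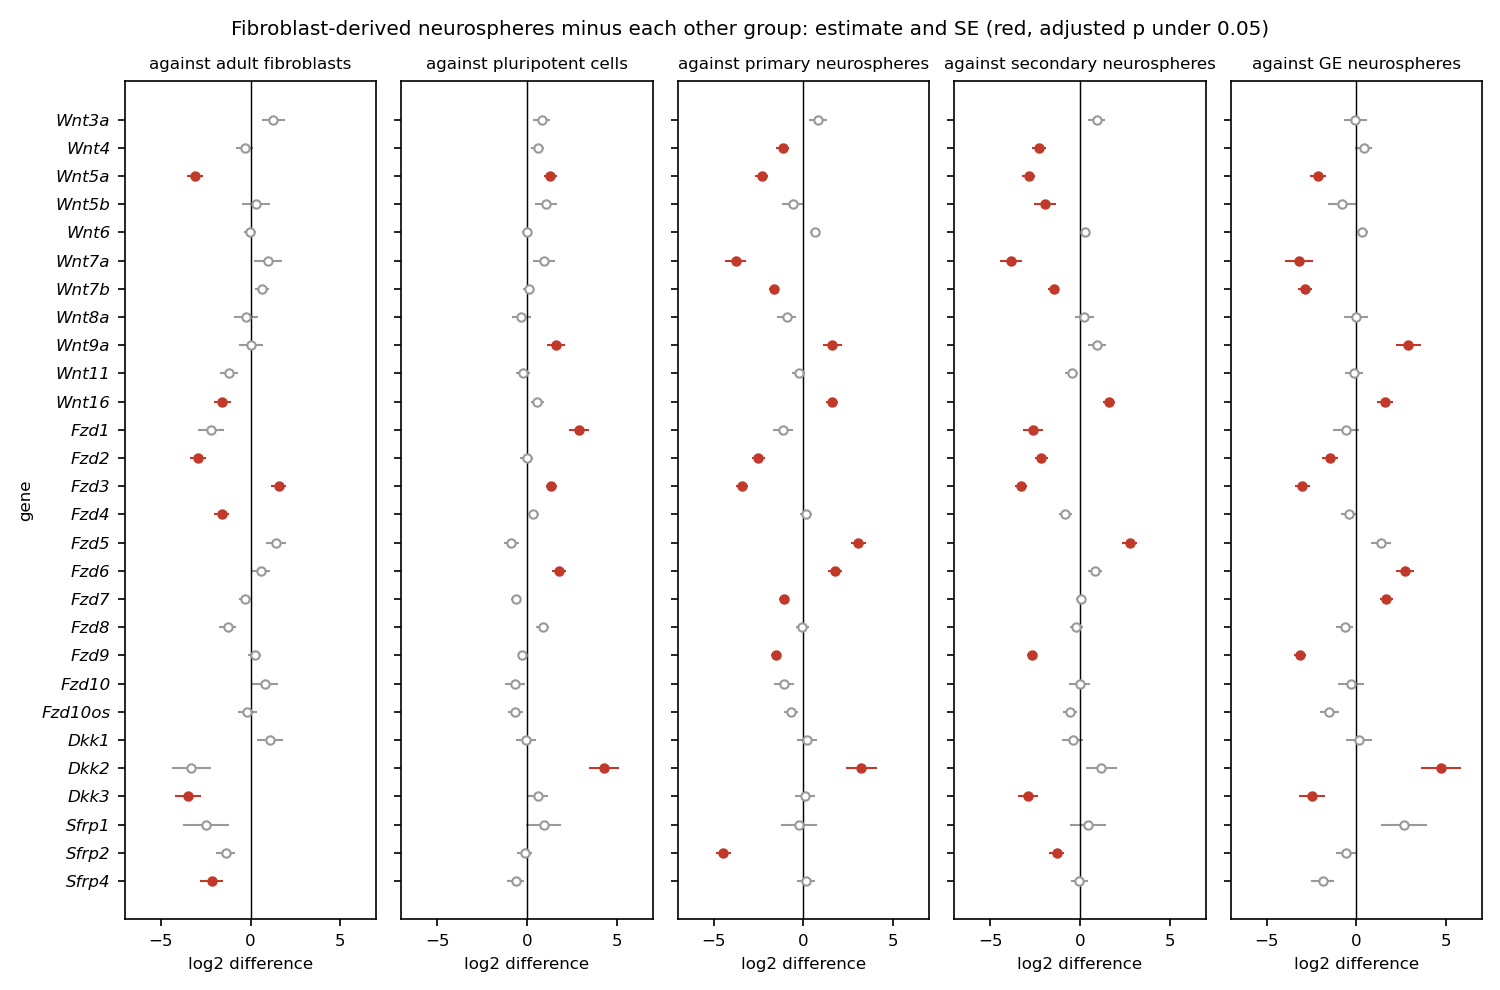
Difference of the fibroblast-derived neurospheres from each other group for the 28 genes, on the scale of log2(MAS5 signal + 5), with bars of 1 SE and filled red points where the adjusted p was under 0.05. Wnt7b, Fzd3 and Fzd9 are lower than in the primary, secondary and GE neurospheres, and Fzd5 is higher than in the primary (3.07) and secondary (2.76) neurospheres.

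Among the ligands, Wnt7a and Wnt7b were high in the neurospheres of iPS, ES and GE origin. Wnt7a, which is known for its action on neural progenitors and on forebrain blood vessels, had signals of 271.2 and 80.5 on the iPS- and ES-derived primary arrays, 172.3 and 142.5 on the secondary arrays and 98.2 on the GE array. It stood at 0.7 in the fibroblasts, 0.7 and 0.9 in the iPS cells and ES cells, 2.9 and 22.6 on adult-derived replicates 1 and 2, and 1.3 and 6.4 on embryonic-derived replicates 3 and 4. The 5 arrays at 80.5 or above were apart from all others, and among the fibroblast-derived arrays only adult-derived replicate 2 reached 20. The fibroblast-derived neurospheres were lower than the primary neurospheres by a log2 difference of -3.78 ± 0.60 (adjusted p = 0.00215) and than the secondary ones by -3.85 ± 0.60 (adjusted p = 0.00194). Primary neurospheres were higher than the pluripotent cells by 4.73 ± 0.69 (adjusted p = 0.00199). Against the GE array the difference was -3.21 ± 0.77 (adjusted p = 0.0157), but -1.71 (adjusted p = 0.0773) when the passing probe sets of a gene were averaged. Averaging also reduced the differences from the primary (-1.76, adjusted p = 0.0268) and secondary neurospheres (-1.92, 0.0182) and that between primary neurospheres and pluripotent cells (1.98, 0.0322). The other passing Wnt7a probe set read between 4.8 and 28, did not follow the used one (r = -0.24 over 12 arrays, which share the scaling) and had the opposite sign in these 3 comparisons, so they rest on 1 probe set.

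Wnt7b, which is close to Wnt7a in sequence and shares its roles in the forebrain, was at 337.8 on the GE array, 193 and 101.6 on the primary arrays and 115.1 and 133.2 on the secondary arrays (iPS first). It was at 25.1 in the fibroblasts, 46.6 and 32.3 in the iPS cells and ES cells, and 36.5, 41.4, 43.1 and 46.4 on fibroblast-derived replicates 1 to 4. The 4 fibroblast-derived signals lay within the range of the fibroblast and pluripotent arrays and below every other neurosphere array. They differed from the GE array by -2.88 ± 0.38 (adjusted p = 0.00115), from the primary neurospheres by -1.64 ± 0.30 (adjusted p = 0.00402) and from the secondary ones by -1.46 ± 0.30 (adjusted p = 0.00668). The last was -1.36 (adjusted p = 0.058) without the ES-derived secondary array. Primary neurospheres exceeded pluripotent cells by 1.73 ± 0.34 (adjusted p = 0.00756), or 1.28 (adjusted p = 0.0514) without the iPS-derived primary array.

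Markers of other neural cells were also higher on some, but not all, of the arrays where Wnt7a, Wnt7b, Fzd3 and Fzd9 were high. The summed signal of 6 astrocyte and oligodendrocyte markers was 15651.8 on the GE array, 4256 and 3930 on the secondary arrays and at most 895.4 on the 9 others, with 6, 5 and 5 of the 6 genes at 20 or above against 1 or 2. The primary arrays, at 240.2 and 308.8, were below the fibroblast-derived arrays, at 403.4 to 895.4. Most of these sums came from Aldoc, at 188.5 and 263.9 on the primary and 377.9 to 823.5 on the fibroblast-derived arrays. Aqp4 went the other way (23.5 and 21.1 against 0.5 to 16.4), and Mbp overlapped (17 and 17.6 against 11 to 78.5). Gfap, Gpr17 and Sox10 were at most 9.4 on these arrays. The sum of 6 neuron markers was 11821.7 and 4742.9 on the primary arrays, 4862.2 and 1935.2 on the secondary arrays and 2004.1 on the GE array, against 686.2 to 1788 on the fibroblast-derived arrays, 1698.4 and 2628.6 in the iPS cells and ES cells and 206.6 in the fibroblasts. The neuron sum of the ES cells was thus above those of the GE array and the ES-derived secondary array. Stmn2 alone gave 2275.9 of the ES cell sum and 1506.3 of the iPS cell sum, and 545.4 to 1367.9 on the fibroblast-derived arrays. Tubb3 was also higher in the ES cells (289.1) than on the GE array (32.4) and the ES-derived secondary array (151.9). Dcx, Snap25, Rbfox3 and Map2 were lower, with Map2 at 36.3 against 1678.9 and 1078.6. All 6 neuron markers reached 20 on the primary and secondary arrays and 1 to 5 of them elsewhere. The part of these cells in the results for the 4 genes was not tested.

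Wnt5a, the best known ligand of the routes without β-catenin, was high in fibroblasts as well as in neurospheres. It read 348.2 in the fibroblasts, 286.5 and 146.3 on the iPS- and ES-derived primary arrays, 220.3 and 400.8 on the secondary arrays and 178 on the GE array. It was at 11.2 and 12.6 in the iPS cells and ES cells, 25.8 and 26.2 on the adult-derived pair and 41.1 and 62.8 on the embryonic-derived pair. The fibroblast-derived signals lay between the pluripotent cells and all other groups, with no overlap on either side. They were lower than the fibroblasts by -3.08 ± 0.45 (adjusted p = 0.00312), than the secondary neurospheres by -2.86 ± 0.35 (adjusted p = 0.000616), than the primary ones by -2.33 ± 0.35 (adjusted p = 0.00167) and than the GE array by -2.14 ± 0.45 (adjusted p = 0.00917). Primary neurospheres were higher than pluripotent cells by 3.64 ± 0.40 (adjusted p = 0.000652). The fibroblast-derived neurospheres were higher than the pluripotent cells by 1.30 ± 0.35 (adjusted p = 0.0239), but by 0.88 (adjusted p = 0.155) with the adult-derived pair alone and by 0.72 (adjusted p = 0.168) after quantile normalization. The difference was 0.99 (adjusted p = 0.0578) at a common median, 0.84 (0.0739) with 20 added before the log and 1.05 (0.0622) with the mean of probe sets. That call was also lost without either pluripotent array (adjusted p = 0.0822 without the iPS cells and 0.0861 without the ES cells), without adult-derived replicate 1 (0.0522) or replicate 2 (0.0558), and without embryonic-derived replicate 4 (0.0748).

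Wnt4 was highest in the secondary neurospheres, at 111.9 on the iPS-derived and 252.3 on the ES-derived array, against 64.6 and 85.6 on the primary arrays and 22 on the GE array. It read 39.3 in the fibroblasts, 20.2 and 17.1 in the iPS cells and ES cells, and 18.7, 33.7, 38.7 and 35.4 on fibroblast-derived replicates 1 to 4. All 4 iPS- and ES-derived neurosphere arrays were above the 8 others. Secondary neurospheres were higher than the GE array by 2.68 ± 0.52 (adjusted p = 0.0292), which fell to 2.11 (adjusted p = 0.0901) without the ES-derived secondary array, and the call was also lost without embryonic-derived replicate 3 (adjusted p = 0.0681) or 4 (0.0679). Against the secondary neurospheres the fibroblast-derived ones were lower by -2.28 ± 0.37 (adjusted p = 0.00225). The difference from the primary ones, -1.15 ± 0.37 (adjusted p = 0.0434), was called in 11 of 20 alternatives. Leaving out the ES-derived primary array gave -0.96 (adjusted p = 0.173), the iPS-derived one -1.34 (0.114), adult-derived replicate 1 -0.98 (0.104), embryonic-derived replicate 3 -1.18 (0.0928) and replicate 4 -1.13 (0.108), and leaving out the iPS cells (0.0504) or the ES cells (0.0503) also ended the call. Primary neurospheres exceeded the pluripotent cells by 1.75 ± 0.42 (adjusted p = 0.0165), but with an adjusted p of 0.0556 without the iPS-derived primary array, 0.056 without the ES-derived one and 0.0671 without the ES cells.

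Wnt5b, a close relative of Wnt5a, had a single high signal, 152.1 on the ES-derived secondary array, and 2 to 25.6 on the 11 others. That array also had the high fibroblast marker sum, and it carried the highest signals of Wnt4, Wnt5a, Fzd1 and Dkk3 among the neurospheres. The call of Wnt5b against the secondary neurospheres, -1.95 ± 0.61 (adjusted p = 0.0383), became -0.74 (adjusted p = 0.307) without it, and the arrays overlapped. It was also lost without adult-derived replicate 1 (0.0935), embryonic-derived replicate 3 (0.0863) or replicate 4 (0.0839).

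Wnt9a and Wnt16 had the reverse pattern, with higher signals in fibroblasts and fibroblast-derived neurospheres than in the GE neurospheres. Wnt9a, known from joint and cartilage formation, was at 47.6 in the fibroblasts, 30.7 and 34.6 on the adult-derived pair, 62 and 82.9 on the embryonic-derived pair and 2.2 on the GE array. It read 12.1 and 13 in the iPS cells and ES cells, 7.2 and 20.6 on the primary arrays and 9.3 and 49 on the secondary arrays, where the ES-derived one overlapped the fibroblast-derived range. The fibroblast-derived neurospheres exceeded the GE array by 2.90 ± 0.68 (adjusted p = 0.0136). The differences from the pluripotent cells (1.61 ± 0.52, adjusted p = 0.0466) and from the primary neurospheres (1.60 ± 0.52, adjusted p = 0.0479) were near the limit. Leaving out any 1 array of the sides compared ended the call against the pluripotent cells, with adjusted p from 0.0834 to 0.156. The call against the primary neurospheres was lost without the iPS-derived primary array (1.07, adjusted p = 0.328) and without each fibroblast-derived or pluripotent array (0.061 to 0.12), and kept without the ES-derived primary array.

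Wnt16, a ligand best known from bone and skin, was at 47.1 in the fibroblasts and 21.9 and 28.7 on the embryonic-derived pair. It was at 2.4 and 9.3 on the adult-derived pair, 8.7 and 5.2 in the iPS cells and ES cells, and between 0.6 and 0.9 on all 5 iPS-, ES- and GE-derived neurosphere arrays. Only the fibroblasts and the embryonic-derived arrays reached 20, so the gene was kept through them, which favours a difference from the rest. The fibroblast-derived neurospheres exceeded the secondary neurospheres by 1.61 ± 0.35 (adjusted p = 0.00904), the primary ones by 1.60 ± 0.35 (adjusted p = 0.00961) and the GE array by 1.58 ± 0.45 (adjusted p = 0.0309), and were below the fibroblasts by -1.57 ± 0.45 (adjusted p = 0.0373). As the signals on the other side were dim, the size depended on the added constant and other settings: the difference from the secondary neurospheres ran from 0.71 to 2.83 over the alternatives. With the adult-derived pair alone the difference from the GE array was 0.80 (adjusted p = 0.278). A list of keratinocyte markers summed highest on the same embryonic-derived arrays, mainly through Krt8, Krt18 and Dsp, with values given below beside Fzd6. Calls were lost without the ES-derived secondary array (against secondary, adjusted p = 0.0565), without the iPS-derived primary array (against primary, 0.0635) and without embryonic-derived replicate 4 (against GE, 0.0691). The call against the fibroblasts was lost without either secondary array (0.0519 and 0.0521), adult-derived replicate 1 (0.0553), embryonic-derived replicate 3 (0.0833) or replicate 4 (0.0611).

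The other 4 kept ligands, Wnt3a, Wnt6, Wnt8a and Wnt11, were dim and were called in no comparison. Wnt3a, a strong activator of β-catenin, lay between 1.4 and 20.3, and Wnt6 between 13.1 and 30.4. Wnt11 was highest in the fibroblasts (29.3) and otherwise between 6.1 and 24.5. Wnt8a read 40.2 on the ES-derived primary array and 4.4 to 14.1 on the 11 others, and that array also had the pluripotency marker sum of 9057.2.

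**Figure D3:**
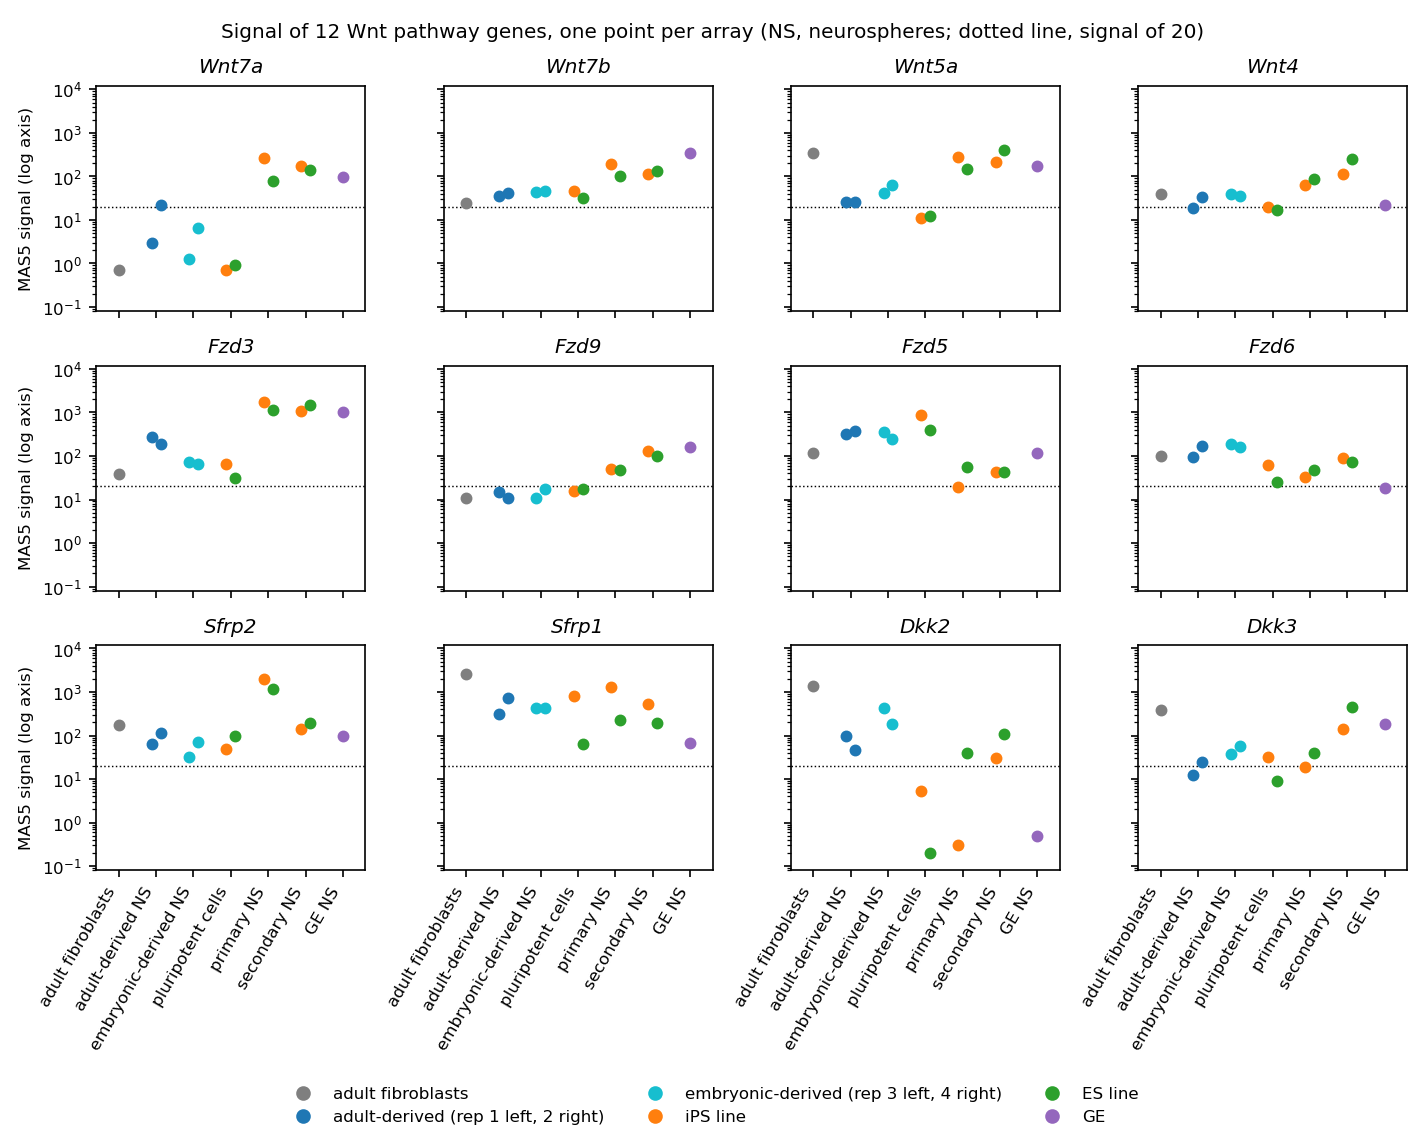
MAS5 signal (log axis) of 12 of the genes, 1 point per array, by group, with a dotted line at 20. The 4 fibroblast-derived points of Wnt7a, Wnt7b, Fzd3 and Fzd9 lie below the primary, secondary and GE points, and those of Fzd5 (245.1 to 366) lie above them.

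Among the receptors, Fzd3 and Fzd9 shared the pattern of Wnt7a and Wnt7b. Fzd3, known for axon guidance and cell polarity in the nervous system, was at 1037.1 on the GE array, 1697.8 and 1143.3 on the primary arrays and 1061.9 and 1495.2 on the secondary arrays. It was at 38.5 in the fibroblasts, 65.6 and 31.6 in the iPS cells and ES cells, 267.8 and 188.4 on the adult-derived pair and 71.6 and 65 on the embryonic-derived pair. Every iPS-, ES- or GE-derived neurosphere array was at 1037.1 or above, and the adult-derived pair stood above the embryonic-derived pair. The fibroblast-derived neurospheres were lower than the primary neurospheres by -3.43 ± 0.32 (adjusted p = 0.000237), than the secondary ones by -3.29 ± 0.32 (adjusted p = 0.000208) and than the GE array by -3.01 ± 0.41 (adjusted p = 0.00124). Primary neurospheres exceeded the pluripotent cells by 4.78 ± 0.36 (adjusted p = 0.000205). The 4 other Fzd3 probe sets that passed had the same sign in each of these comparisons but were less far apart: the mean of the 5 gave -1.91 (adjusted p = 0.00189), -1.88 (0.0019), -1.59 (0.0149) and 2.27 (0.00239) in that order. The fibroblast-derived neurospheres also exceeded the fibroblasts (1.58 ± 0.41, adjusted p = 0.0254) and the pluripotent cells (1.35 ± 0.32, adjusted p = 0.0143), but with the mean of probe sets these were 0.63 (adjusted p = 0.254) and 0.36 (0.376), and embryonic-derived replicate 4 lay just under the iPS cells. The first of these calls was lost without adult-derived replicate 1 (0.0568), embryonic-derived replicate 3 (0.0623) or replicate 4 (0.0539) and at a common median (0.0585), and the other without the ES cells (0.88, adjusted p = 0.102) and after quantile normalization (0.0618).

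Fzd9, a receptor found on neural progenitors of the developing brain, was at 157.3 on the GE array, 127.5 and 102.5 on the secondary arrays and 49.2 and 48.4 on the primary arrays. It stayed under 20 on all 7 other arrays, between 10.7 and 17.9. The gene was thus kept only through the other 5 arrays, which favours a difference from the rest. The 5 and the 7 did not overlap. The filter, which asks for 20 on only 1 array, did not fix this, but the calls that follow carry the same limit. Fzd9 in the fibroblast-derived neurospheres was lower than on the GE array by -3.14 ± 0.35 (adjusted p = 0.000549), than in the secondary neurospheres by -2.70 ± 0.27 (adjusted p = 0.000259) and than in the primary ones by -1.55 ± 0.27 (adjusted p = 0.00334). Primary neurospheres exceeded pluripotent cells by 1.29 ± 0.31 (adjusted p = 0.0162), but by 0.79 (adjusted p = 0.117) after quantile normalization and with an adjusted p of 0.0796 without the iPS-derived primary array.

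Fzd5, a receptor of embryonic and retinal development, had the opposite pattern. It was at 884.9 and 393.8 in the iPS cells and ES cells, 314.4 and 366 on the adult-derived pair and 361.1 and 245.1 on the embryonic-derived pair. It was at 19.5 and 55.6 on the primary arrays, 42.7 and 42.4 on the secondary arrays, 119.2 on the GE array and 115.6 in the fibroblasts. The 6 pluripotent and fibroblast-derived arrays were all above the other 6. The fibroblast-derived neurospheres exceeded the primary ones by 3.07 ± 0.42 (adjusted p = 0.00113) and the secondary ones by 2.76 ± 0.42 (adjusted p = 0.0018), and primary neurospheres were below pluripotent cells by -3.95 ± 0.49 (adjusted p = 0.000967). Pluripotent cells exceeded the fibroblasts by 2.30 ± 0.60 (adjusted p = 0.0153), or by 1.73 (adjusted p = 0.0519) without the iPS cells. The differences of the fibroblast-derived neurospheres from the fibroblasts (1.42 ± 0.54, adjusted p = 0.0935) and the GE array (1.38 ± 0.54, adjusted p = 0.0912) did not pass. Fzd5 was high on the same arrays that had high pluripotency marker sums, except the ES-derived primary array, where it was at 55.6 beside a sum of 9057.2.

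Fzd6 and Fzd7 were lowest on the GE array. Fzd6, known for the orientation of hair and skin cells, was at 95.3, 169.2, 185.4 and 157.7 on fibroblast-derived replicates 1 to 4, 97.7 in the fibroblasts and 18.4 on the GE array. It was at 62.5 and 24.6 in the iPS cells and ES cells, 32.8 and 48.2 on the primary arrays and 90 and 72 on the secondary arrays. The 4 fibroblast-derived arrays were above every array but that of the fibroblasts. They exceeded the GE array by 2.70 ± 0.49 (adjusted p = 0.00489), the pluripotent cells by 1.77 ± 0.38 (adjusted p = 0.0109) and the primary neurospheres by 1.77 ± 0.38 (adjusted p = 0.00927). Without the ES cells the second was 1.18 (adjusted p = 0.075), and without the iPS-derived primary array the third was 1.52 (adjusted p = 0.0878). The summed signal of 6 genes listed as keratinocyte markers was 796.3 and 1156.7 on the adult-derived pair and 2649.6 and 4001.5 on the embryonic-derived pair, against 66 in the fibroblasts, 46.5 on the GE array and at most 550.5 on any other array. On replicates 1 to 4, 2, 6, 6 and 6 of these markers reached 20, and elsewhere 0 to 3. On the embryonic-derived pair most of the sum came from Krt8, Krt18 and Dsp, at 699.9 to 1607.4. Krt5, Krt14 and Trp63 were at 25.5 to 57.2 there, so the sum is not a reading of keratinocytes as such. These arrays also carried the placental markers given above. The part of cells with these transcripts in the results for Fzd6 and Wnt16 was not tested.

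Fzd7, a main Wnt receptor of ES cells, was at 749.8 and 350.8 in the iPS cells and ES cells, 811.6 and 619.9 on the primary arrays, 318.3 and 326.1 on the secondary arrays and 102 on the GE array. It was at 411.7 in the fibroblasts and 298.3, 265.7, 365.3 and 438.4 on fibroblast-derived replicates 1 to 4. All 11 other arrays were above the GE array. The fibroblast-derived neurospheres exceeded the GE array by 1.67 ± 0.37 (adjusted p = 0.0115). They were below the primary neurospheres by -1.07 ± 0.29 (adjusted p = 0.0237), a call lost without the iPS-derived primary array (-0.87, adjusted p = 0.175), adult-derived replicate 2 (0.063) or embryonic-derived replicate 3 (0.0703). Secondary neurospheres stood above the GE array by 1.61 ± 0.41 (adjusted p = 0.0699), which was called with the line of origin as a block (adjusted p = 0.0335).

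Fzd1 and Fzd2, close relatives of Fzd7, were low in the pluripotent cells and high in the fibroblasts and in the iPS- and ES-derived neurospheres. Fzd1 was at 26.5 and 6.1 in the iPS cells and ES cells, 237.7 and 384.5 on the primary arrays, 595.6 and 1196.3 on the secondary arrays, 621.4 in the fibroblasts and 199.9 on the GE array. On fibroblast-derived replicates 1 to 4 it was at 68.1, 186, 111.4 and 221. Primary neurospheres exceeded pluripotent cells by 4.04 ± 0.65 (adjusted p = 0.00298), and pluripotent cells were below fibroblasts by -5.07 ± 0.79 (adjusted p = 0.00179). Fibroblast-derived neurospheres lay above the pluripotent cells by 2.89 ± 0.56 (adjusted p = 0.00702; 2.14 and 0.0606 without the ES cells) and below the secondary neurospheres by -2.62 ± 0.56 (adjusted p = 0.00855; -2.12 and 0.0814 without the ES-derived secondary array). On each of the 4 fibroblast-derived arrays Fzd1 stood between the 2 groups.

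Fzd2 was at 422.3 in the fibroblasts, 341.2 and 296.2 on the primary arrays, 219.3 and 274.6 on the secondary arrays and 153 on the GE array. It was at 66.2 and 40.7 in the iPS cells and ES cells and 31.9, 81.5, 45.9 and 58 on fibroblast-derived replicates 1 to 4, all under the 6 other arrays. As a group these neurospheres were lower than the fibroblasts by -2.92 ± 0.46 (adjusted p = 0.00393), than the primary neurospheres by -2.51 ± 0.36 (adjusted p = 0.00128) and than the secondary ones by -2.15 ± 0.36 (adjusted p = 0.00264). Primary neurospheres exceeded pluripotent cells by 2.50 ± 0.41 (adjusted p = 0.00331). The call against the GE array, -1.48 ± 0.46 (adjusted p = 0.0417), was lost without any 1 of 6 arrays: both primary and both secondary arrays and embryonic-derived replicates 3 (-1.41) and 4 (-1.56). It was also lost with the adult-derived pair alone (-1.48).

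The other receptors were dimmer. Fzd4, a receptor of blood vessel growth, was at 73.9 in the fibroblasts, 16.6 to 28.1 on the fibroblast-derived arrays and 23 and 10.5 in the iPS cells and ES cells. It was lower than in the fibroblasts in the fibroblast-derived neurospheres (-1.61 ± 0.43, adjusted p = 0.0295) and in the pluripotent cells (-1.92 ± 0.47, adjusted p = 0.0125). The first call was lost with the adult-derived pair alone (-1.56). It was also lost without adult-derived replicate 2 (-1.45) or embryonic-derived replicate 3 (-1.70) or 4 (-1.51). Fzd8 lay between 10.1 and 79.5 and was lower in the pluripotent cells than in the fibroblasts (-2.14 ± 0.53, adjusted p = 0.0125). With the line of origin as a block, Fzd8 was also called between the fibroblast-derived neurospheres and the fibroblasts (-1.27, adjusted p = 0.0254 against 0.0915 without the block) and the pluripotent cells (0.87, 0.032 against 0.11), and between primary neurospheres and pluripotent cells (0.94, 0.0402 against 0.13). Fzd10 lay between 3.8 and 61.1 and Fzd10os between 5.8 and 39.5, and neither was called in any comparison.

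Promoters of 6 called genes, picked by hand, are given as examples and do not stand for the groups of genes they come from. They are Wnt7a and Fzd9, which were high in the neurospheres of iPS, ES and GE origin, Sfrp2 and Wnt4, which were high in the primary or secondary neurospheres, Fzd5, which was high in the pluripotent cells, and Fzd7, which was highest in the primary neurospheres and lowest on the GE array. Each line gives the 250 bases before the start site, 5′ to 3′ on the gene's strand, from RefSeq on GRCm38.p6. Capitals mark any match, on either strand, to 4 motifs: TCF/LEF sites, at which the partners of β-catenin can bind, an E-box, the TATA box and the GC box, where adjoining matches run together. A TCF/LEF site was any of 4 forms, of which CTTTGAA was one, with CTTTGAT as another, CTTTGTA as a further form and CTTTGTT as the last. The E-box searched was CAGCTG. For the TATA box the letters were TATAAA, and for the GC box they were GGGCGG.
Wnt7a: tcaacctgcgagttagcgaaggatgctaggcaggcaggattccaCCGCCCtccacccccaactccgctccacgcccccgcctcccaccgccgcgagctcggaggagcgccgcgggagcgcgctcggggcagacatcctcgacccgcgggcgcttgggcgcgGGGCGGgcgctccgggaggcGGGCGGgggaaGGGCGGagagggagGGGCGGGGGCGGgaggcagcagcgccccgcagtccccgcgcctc
Fzd9: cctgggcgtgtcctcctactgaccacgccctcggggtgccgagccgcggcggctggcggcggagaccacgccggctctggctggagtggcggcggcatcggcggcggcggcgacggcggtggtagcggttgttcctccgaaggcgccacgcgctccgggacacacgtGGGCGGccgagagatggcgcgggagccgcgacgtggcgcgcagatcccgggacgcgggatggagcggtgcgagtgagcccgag
Sfrp2: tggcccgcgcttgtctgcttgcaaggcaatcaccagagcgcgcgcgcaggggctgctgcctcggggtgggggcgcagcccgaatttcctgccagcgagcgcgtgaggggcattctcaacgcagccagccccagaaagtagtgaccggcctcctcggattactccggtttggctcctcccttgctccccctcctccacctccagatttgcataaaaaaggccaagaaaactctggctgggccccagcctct
Wnt4: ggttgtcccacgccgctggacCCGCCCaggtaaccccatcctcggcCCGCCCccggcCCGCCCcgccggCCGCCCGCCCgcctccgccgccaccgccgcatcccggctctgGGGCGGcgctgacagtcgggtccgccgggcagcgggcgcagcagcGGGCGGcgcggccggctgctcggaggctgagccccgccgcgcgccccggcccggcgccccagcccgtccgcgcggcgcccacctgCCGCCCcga
Fzd5: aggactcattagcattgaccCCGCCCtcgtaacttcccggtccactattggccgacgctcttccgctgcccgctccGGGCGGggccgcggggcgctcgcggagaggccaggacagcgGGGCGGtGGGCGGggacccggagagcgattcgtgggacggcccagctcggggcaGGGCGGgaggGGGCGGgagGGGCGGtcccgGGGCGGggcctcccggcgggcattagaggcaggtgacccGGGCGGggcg
Fzd7: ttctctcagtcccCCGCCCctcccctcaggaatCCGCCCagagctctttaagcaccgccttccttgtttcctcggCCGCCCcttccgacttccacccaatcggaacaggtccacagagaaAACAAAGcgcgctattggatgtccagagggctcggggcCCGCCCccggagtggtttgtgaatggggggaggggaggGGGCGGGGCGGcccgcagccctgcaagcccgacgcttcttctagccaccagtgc
Wnt7a lies at chr6:91411354-91411603 on the minus strand, Fzd9 at chr5:135251048-135251297 on the minus strand and Sfrp2 at chr3:83766071-83766320 on the plus strand. Wnt4 lies at chr4:137277385-137277634 on the plus strand, Fzd5 at chr1:64737751-64738000 on the minus strand and Fzd7 at chr1:59481897-59482146 on the plus strand. All 6 were rich in G and C, from 63.6% in Sfrp2 to 85.2% in Wnt4, against a median of 52.4% over 32851 promoters. GC boxes were found 9 times in Fzd5, 8 in Wnt4, 6 in Wnt7a, 6 in Fzd7, 1 in Fzd9 and 0 times in Sfrp2. The single TCF/LEF match among the 6 was in Fzd7, 130 bases before the start. Of the 28 genes, 17 had a promoter entry, some with more than 1 promoter, and a gene was counted if any of its promoters held a match. A GC box was in 13 of these 17 (35.4% of all 27025 genes with an entry), a TCF/LEF match in 4 (Wnt5b, Wnt11, Fzd7 and Dkk1, against 16.8%), a TATA box in 4 (14.3%) and the E-box in 2 (14.7%). Taken by promoter, the shares over all 32851 were 32.7%, 14.8%, 12.4% and 13%. A match describes the letters only and was not tested as a site.

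Among the Sfrp inhibitors, Sfrp2 was high at a single stage of the iPS and ES lines. It was at 1947.1 and 1172 on the iPS- and ES-derived primary arrays, against 49.4 and 97.3 in the iPS cells and ES cells and 138.6 and 193.1 on the secondary arrays. It was at 97 on the GE array, 174.1 in the fibroblasts, and 62.6, 113.9, 31.6 and 69.2 on fibroblast-derived replicates 1 to 4. Both primary arrays were at least 1172 and no other array exceeded 193.1. Primary neurospheres exceeded the pluripotent cells by 4.34 ± 0.48 (adjusted p = 0.000652), and the fibroblast-derived neurospheres were below the primary ones by -4.47 ± 0.42 (adjusted p = 0.000245). Secondary neurospheres were below primary ones by -3.17 ± 0.48 (adjusted p = 0.0178), and this call was lost without the iPS-derived primary array (-2.80, adjusted p = 0.0605) or either secondary array (-2.94 and 0.0679 without the iPS-derived one, -3.40 and 0.0982 without the ES-derived one). The difference of the fibroblast-derived from the secondary neurospheres, -1.30 ± 0.42 (adjusted p = 0.0413), was lost in 6 alternatives, among them leaving out either secondary array (0.0978 and 0.219), adult-derived replicate 1 (0.103) or embryonic-derived replicate 3 (0.108).

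Sfrp1 was lower in the ES line than in the iPS line. In the iPS line it was at 812.6 in the cells, 1274 in the primary and 536.7 in the secondary neurospheres, and in the ES line at 65.2, 223.7 and 195.5. It was at 2546.2 in the fibroblasts, 67.3 on the GE array and 315.8, 710.2, 430.6 and 421.5 on fibroblast-derived replicates 1 to 4. The ES line was lower at 3 of 3 stages, on each of the 5 Sfrp1 probe sets. The line term, tested after these signals had been seen, was -2.49 ± 0.41 (adjusted p = 0.049975), beside 0.659% of all genes called, and Sfrp1 was the single call of 28. It sat at the limit: the adjusted p ran from 0.0355 to 0.213 over the alternatives, and leaving out any 1 array ended the call. The lines also differ in pluripotency marker sums at the primary stage and fibroblast marker sums at the secondary stage, as above. With the line as a block, Sfrp1 was lower in the fibroblast-derived neurospheres than in the fibroblasts (-2.49, adjusted p = 0.015 against 0.193 without the block), higher than on the GE array (2.65, 0.00939 against 0.155), and lower in the pluripotent cells than in the fibroblasts (-3.41, 0.00342 against 0.0848).

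**Figure D4:**
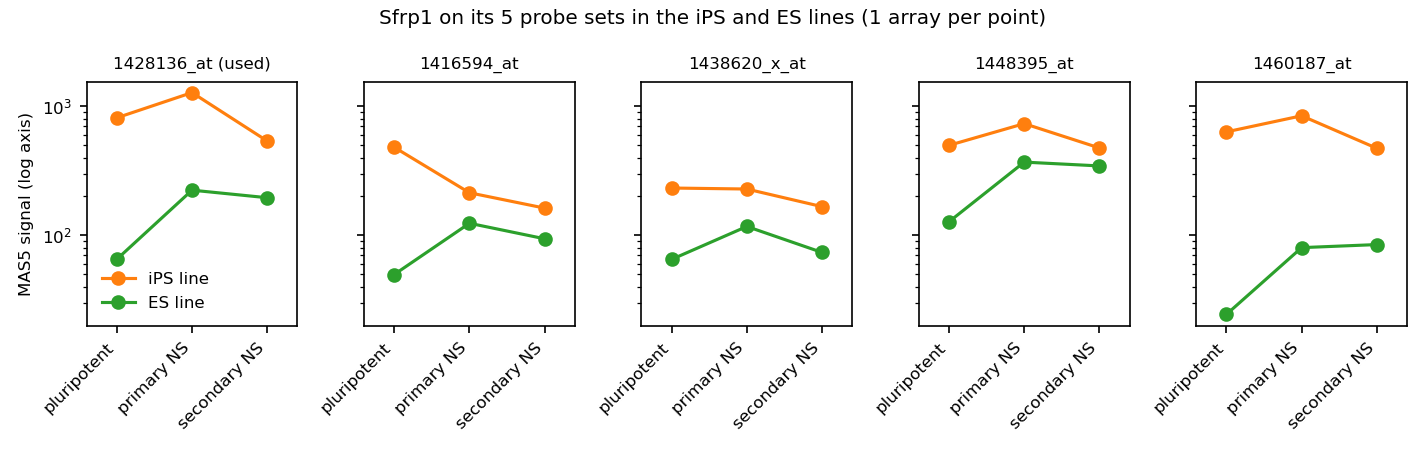
MAS5 signal (log axis) of the 5 Sfrp1 probe sets at 3 stages of the iPS and ES lines, 1 array per point. On every probe set and at every stage the ES line lies below the iPS line, and on the used probe set the signals are 812.6, 1274 and 536.7 against 65.2, 223.7 and 195.5.

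Sfrp4 was at 121.1 in the fibroblasts, 98.3 on the GE array and 75.7 in the ES cells, and between 15.7 and 35 on the 9 others. It was lower in the fibroblast-derived neurospheres than in the fibroblasts by -2.17 ± 0.63 (adjusted p = 0.0384). That call was lost with the adult-derived pair alone (-2.27) and without any 1 of the 4 fibroblast-derived arrays (differences from -2.21 to -2.12).

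Dkk2 was the Dickkopf gene with the widest range. It was at 1410.6 in the fibroblasts, 97.2 and 45.9 on the adult-derived pair and 439 and 181.1 on the embryonic-derived pair, against 0.5 on the GE array and 5.3 and 0.2 in the iPS cells and ES cells. It was at 0.3 and 40 on the primary arrays and 30.7 and 106.3 on the secondary arrays. The fibroblast-derived arrays lay between the fibroblasts and the pluripotent, primary and GE arrays with no overlap, and overlapped the ES-derived secondary array. Pluripotent cells were below fibroblasts by -7.60 ± 1.21 (adjusted p = 0.00194). As both pluripotent signals, like that of the GE array, were far under 20, such sizes depend on the constant added before the log, and this one ran from -9.0 to -5.98 over the alternatives. The fibroblast-derived neurospheres exceeded the GE array by 4.71 ± 1.11 (adjusted p = 0.014; 3.71 and 0.0564 with the adult-derived pair alone), the pluripotent cells by 4.30 ± 0.86 (adjusted p = 0.00787; 3.81 and 0.0637 without the ES cells) and the primary neurospheres by 3.22 ± 0.86 (adjusted p = 0.0222). The last was 1.68 (adjusted p = 0.199) without the iPS-derived primary array, and was also lost without adult-derived replicate 1 (0.0585) or embryonic-derived replicate 3 (0.0663). Against the fibroblasts the difference of -3.30 ± 1.11 had an adjusted p of 0.0622, and of 0.0398 with the line as a block. Fibroblast marker sums, which were 952.2 to 6138.9 on the fibroblast-derived arrays, were also above those of the pluripotent cells (425.6 and 76.3), and their part in this result was not tested.

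Dkk3, a member of the family that is not known as a strong inhibitor of Wnt signals, was at 376.5 in the fibroblasts, 187.4 on the GE array and 140.2 and 447.4 on the secondary arrays. It was at 31.4 and 8.8 in the iPS cells and ES cells, 18.7 and 39.2 on the primary arrays, and 12.6, 25, 37.6 and 58.1 on fibroblast-derived replicates 1 to 4. The 4 high arrays were apart from the other 8. Dkk3 was lower in the fibroblast-derived neurospheres than in the fibroblasts by -3.47 ± 0.73 (adjusted p = 0.0116), than in the secondary neurospheres by -2.89 ± 0.57 (adjusted p = 0.00563) and than on the GE array by -2.48 ± 0.73 (adjusted p = 0.0345). The second was -2.07 (adjusted p = 0.0591) without the ES-derived secondary array. The third was lost without adult-derived replicate 1 (0.0709) or embryonic-derived replicate 3 (0.0798) or 4 (0.0573). Pluripotent cells were also below fibroblasts (-4.09 ± 0.80, adjusted p = 0.00462). Secondary against primary neurospheres differed by 2.99 ± 0.65 with an adjusted p of 0.0509, and of 0.0475 with the line as a block. Dkk1, a target and inhibitor of β-catenin signals, lay between 4.8 and 51.8, highest on adult-derived replicate 2, and was called in no comparison.

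Some of the genes varied together over the 12 arrays. The highest correlation on the log2 scale was between Fzd3 and Wnt7a (r = 0.95), followed by Fzd9 and Wnt7b (0.90), Fzd2 and Wnt5a (0.90), Fzd1 and Wnt5a (0.88) and Wnt7a and Wnt7b (0.88). The lowest were between Fzd5 and Wnt5a (-0.90), Fzd5 and Wnt7a (-0.86) and Fzd5 and Fzd2 (-0.83). These values describe 12 arrays that share groups, lines and scaling, and were not tested. Wnt3a and Wnt9a, which adjoin each other on chromosome 11, and Fzd10 and Fzd10os, which adjoin each other on chromosome 5, were not among the high pairs (Fzd10 and Fzd10os at 0.58).

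The rest of the pathway was followed with 6 gene lists. Both tested genes that help Wnts to leave the cell were called over the 7 groups, beside 61.6% of all genes, and 1 of the 2 without embryonic-derived replicate 3. Porcn was at 128.9, 244.4, 289.4 and 215.5 on fibroblast-derived replicates 1 to 4. It was between 39.9 and 127 on the 8 other arrays, with no overlap. The GE array was the nearest of these, at 127, and Porcn was not called against it. Its difference was 1.92 ± 0.51 from the fibroblasts (adjusted p = 0.0276), 1.69 ± 0.39 from the pluripotent cells (adjusted p = 0.0143), 1.94 ± 0.39 from the primary (adjusted p = 0.00698) and 1.88 ± 0.39 from the secondary neurospheres (adjusted p = 0.00787). The first of these calls was lost without adult-derived replicate 2 or either embryonic-derived array (adjusted p up to 0.072), and the others without the iPS cells (0.082), the iPS-derived primary (0.0749) and the iPS-derived secondary array (0.0651). Wls was at 68.8 and 11.4 in the iPS cells and ES cells and 222.1 or higher on every other array, with 1485.4 in the fibroblasts. It was higher than in the pluripotent cells in the fibroblast-derived (3.52 ± 0.59, adjusted p = 0.00369) and the primary neurospheres (3.20 ± 0.68, adjusted p = 0.00968).

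Of 11 tested co-receptors and regulators of Frizzled turnover, 3 were called over the 7 groups, beside 61.6% of all genes. Ryk, a Wnt co-receptor, was at 813.3 in the fibroblasts and between 206.9 and 374.5 on all other arrays, and was lower than in the fibroblasts in the fibroblast-derived neurospheres (-1.34 ± 0.24, adjusted p = 0.00658). Kremen1, which works with Dickkopf proteins to remove Lrp6 from the surface, was at 92.9 to 178 on the fibroblast-derived arrays against 24 and 49.9 in the iPS cells and ES cells (1.72 ± 0.32, adjusted p = 0.00586). Lgr4, a receptor for R-spondins, was at 431.2 to 1128.4 on the fibroblast-derived arrays against 166.6 on the GE array (2.10 ± 0.41, adjusted p = 0.00634). Against the secondary neurospheres 1 of the 11 was called, beside 33.6% of all genes, and it was higher (Lgr4, 1.08 ± 0.31, adjusted p = 0.0292). That call was lost without the iPS-derived secondary array, adult-derived replicate 2 or either embryonic-derived array (adjusted p up to 0.246).

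Of 10 other secreted or membrane inhibitors, 5 were called against the secondary neurospheres, 1 higher and 4 lower in the fibroblast-derived neurospheres, beside 33.6% of all genes, and 1 was called without the ES-derived secondary array. Draxin, an axon guidance protein that can block Wnt signals, was at 6.8 to 20.4 on the fibroblast-derived arrays against 56.4 and 114.8 on the secondary arrays (-2.36 ± 0.39, adjusted p = 0.00256) and 192 on the GE array (-3.56 ± 0.50, adjusted p = 0.0015). Igfbp4 (-2.37 ± 0.61, adjusted p = 0.0184) and Trabd2b (-2.46 ± 0.59, adjusted p = 0.0136) were lower too. Both were highest, at 969.6 and 120.9, on the ES-derived secondary array with the high fibroblast marker sum, and neither was called without it (adjusted p = 0.152 and 0.114). Igfbp4 overlapped, with 422 on embryonic-derived replicate 4 above 410.3 on the iPS-derived secondary array. Tpbg was at 161.8 to 208.5 on the fibroblast-derived arrays and 55.6 and 25.8 in the iPS cells and ES cells (2.10 ± 0.42, adjusted p = 0.00772; 0.0635 without the ES cells).

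Of 20 cytoplasmic and nuclear components, 9 were called over the 7 groups, beside 61.6% of all genes. Tcf7l2, a TCF factor, was higher in the fibroblast-derived neurospheres (232.6 to 332) than in the pluripotent cells (93.5 and 42), by 2.09 ± 0.29 (adjusted p = 0.00162). Tle4, a corepressor, was at 36.4 in the fibroblasts and 441.8 or higher on every other array, and the fibroblast-derived neurospheres exceeded the fibroblasts by 4.75 ± 0.55 (adjusted p = 0.00132). Tle1 was lower than in the secondary neurospheres (-0.98 ± 0.25, adjusted p = 0.0173), as was Apc2, a relative of the β-catenin regulator Apc found mostly in the nervous system (-1.86 ± 0.39, adjusted p = 0.00762). Against the secondary neurospheres 4 of the 20 were called, 1 higher and 3 lower, beside 33.6% of all genes, with a median of -0.20 against 0.05. None was called without the ES-derived secondary array (Apc2, adjusted p = 0.0648), and the call of Tle1 was also lost without the iPS-derived one, adult-derived replicate 2 or embryonic-derived replicate 4 (up to 0.125).

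Genes that β-catenin is known to induce, or that feed back on it, did not move as 1 group. Against the secondary neurospheres, 4 of 11 tested were called, all lower in the fibroblast-derived neurospheres, beside 33.6% of all genes, and 2 were called without the ES-derived secondary array. Nkd1, a feedback inhibitor, was at 20.5, 25.4, 7.4 and 10.3 on fibroblast-derived replicates 1 to 4 against 90.4 and 128.3 on the secondary arrays (-2.53 ± 0.33, adjusted p = 0.000879). Lgr5, a receptor for R-spondins, was at 3.9, 13.1, 9.6 and 18.8 against 116.8 and 78.8 (-2.72 ± 0.38, adjusted p = 0.00116), and at 168.4 in the fibroblasts. Sp8, a transcription factor, was at 207.8 and 166.1 on the primary arrays and 45.6 or lower on all others, and primary neurospheres exceeded the pluripotent cells by 4.16 ± 0.60 (adjusted p = 0.00194).

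Apcdd1, a membrane inhibitor of Wnt signals that is itself a target, went the other way. It was at 958.2 and 1098.7 on the adult-derived pair, 1797.4 and 1946.6 on the embryonic-derived pair, against 51 in the fibroblasts, 44 and 32.1 in the iPS cells and ES cells and 114 on the GE array. The primary arrays were at 113.5 and 445.8 and the secondary arrays at 658.2 and 1130.4, the last within the fibroblast-derived range. The fibroblast-derived neurospheres exceeded the pluripotent cells by 5.03 ± 0.47 (adjusted p = 0.000317), the fibroblasts by 4.63 ± 0.60 (adjusted p = 0.00211), the GE array by 3.55 ± 0.60 (adjusted p = 0.00362) and the primary neurospheres by 2.59 ± 0.47 (adjusted p = 0.00397). It was the single target called higher in each of these comparisons.

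**Figure D5:**
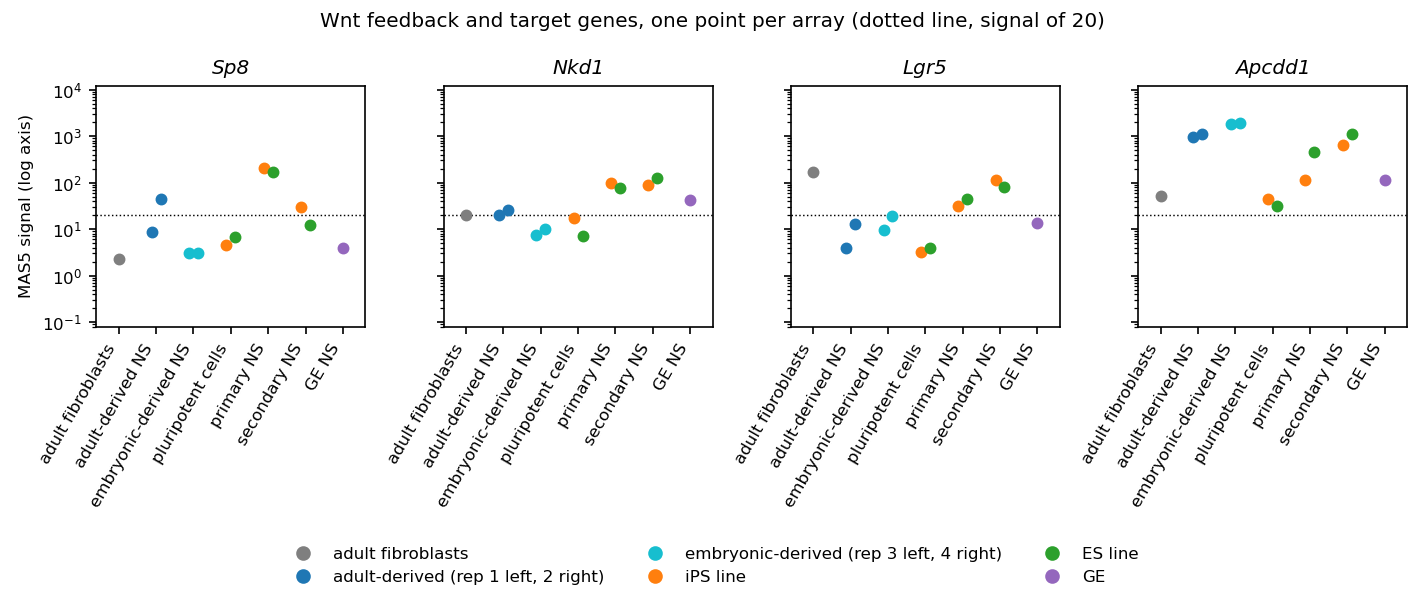
MAS5 signal (log axis) of 4 Wnt feedback and target genes, 1 point per array, by group, with a dotted line at 20. Nkd1 and Lgr5 are lower on the 4 fibroblast-derived arrays than on the secondary neurospheres and Sp8 is highest on the primary neurospheres (207.8 and 166.1). Apcdd1 is at 958.2 to 1946.6 on the 4 fibroblast-derived arrays against 32.1 to 51 in the pluripotent cells and fibroblasts.

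Of 10 planar cell polarity genes, which steer the route without β-catenin to which Fzd3 and Fzd6 also belong, 9 were called over the 7 groups, beside 61.6% of all genes. Primary neurospheres exceeded the pluripotent cells in 8 of 10, beside 30.1% of all genes called, with 0 lower and a median of 1.85 against 0.05 over all genes. Without the iPS-derived primary array, 3 of the 10 were called. The fibroblast-derived neurospheres were below the secondary neurospheres in 6 of 10 and above them in 1, beside 33.6% of all genes called, with a median of -1.29, and 3 of 10 were called without either secondary array. Celsr2, a cadherin, was at 95.6, 72, 71.5 and 76.4 on fibroblast-derived replicates 1 to 4, between the secondary arrays (242.2 and 501.1) and the pluripotent cells (31.7 and 35.8). It differed from the first by -2.09 ± 0.32 (adjusted p = 0.0018) and from the second by 1.11 ± 0.32 (adjusted p = 0.0304), a call lost without either pluripotent array, adult-derived replicate 1 or either embryonic-derived array (adjusted p up to 0.103). Vangl2, a membrane protein of the same complex, was below the secondary neurospheres by -2.07 ± 0.33 (adjusted p = 0.0021) and below the primary ones by -2.14 ± 0.33 (adjusted p = 0.00184). Celsr3 was highest on the primary arrays, at 162.3 and 98.1, and Celsr1 was at 2.5 in the fibroblasts and 60.2 to 83.3 on the fibroblast-derived arrays (3.36 ± 0.51, adjusted p = 0.00352).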

How the data were processed

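RNA of 12 mouse cultures, extracted with Trizol per the labels, was measured on arrays with 45101 probe sets. Per the submitters' processing notes, the authors made the deposited linear signal intensities with Affymetrix Expression Console 1.1 and MAS5, whose version is not given. Each array has a trimmed mean of 100, which hides a change in total RNA, and dim MAS5 signals are noisy. No detection calls were used.

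Probe sets were named through the platform annotation: 34945 had 1 symbol, 932 several and 9160 none, beside 64 controls. Genes reaching 20 on at least 1 array were kept, each by its probe set with the highest mean. Symbols of the 28 genes were matched to RefSeq on GRCm38.p6 (28 of 28).

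The log2(signal + 5) values of all 12 arrays were fitted in 7 groups with limma 3.58.1 in R 4.3.3 (eBayes with trend, 2-sided, 5 residual and 3.63 prior degrees of freedom). The mean of the fibroblast-derived neurospheres gave the adult- and embryonic-derived pairs equal weight. P-values were adjusted by Benjamini-Hochberg over 13650 genes. The script was tested on simulated data. Alternatives were 2 scalings, pseudocounts of 1 and 20, no filter, the mean of probe sets, no trend, the adult-derived pair alone, the replicate block and leaving out each array.

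Replicate numbers of the iPS- and ES-derived arrays mark the same line and so pair them. Deviations from group means correlated at 0.252 (pluripotent and primary), 0.0578 (pluripotent and secondary) and 0.425 (primary and secondary).

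The genes, the 6 pathway lists and the 10 marker lists (16 in all, 126 of 146 genes tested) were chosen with earlier results of these data known. All 28 genes may be named, and of each pathway list the 4 with the smallest adjusted F-test p. The printed promoters leave out the 50 bases after the start.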

Additional observations from a re-analysis of the deposited data

How the results depend on the processing

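Of the 73 calls, none changed direction under the 21 alternatives, and 40 of the 73 passed in each one that was run on them. Most losses came from leaving out an array: 14 calls were lost without embryonic-derived replicate 3 and 13 without replicate 4, 11 each without adult-derived replicate 1 or the iPS-derived primary array, 10 without the ES-derived secondary array and 9 without the ES cells. With the adult-derived pair alone, 18 of 25 calls were kept. Other settings lost 2 to 5 calls (5 with quantile normalization, 4 at a common median, 4 with the mean of probe sets, 3 each without the filter, without the trend and with a pseudocount of 1, and 2 with a pseudocount of 20).

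Counts of called genes, which need not be the same genes, moved as follows. Against the adult fibroblasts, 7 became 11 at a common median and ranged from 3 to 9 over the arrays left out. Over arrays left out, the count ranged from 1 to 6 against the pluripotent cells, 9 to 14 against the primary and 8 to 13 against the secondary neurospheres. For secondary against primary neurospheres it was 2 with quantile normalization, 3 at a common median, 3 with a pseudocount of 20, and 0 to 3 over arrays left out. For secondary against GE neurospheres it was 2 with quantile normalization and 0 to 2 over arrays left out. With the replicate block (line of origin) both of these counts were 2, Dkk3 and Fzd7 being added. Besides the calls given above for Sfrp1, Fzd8, Dkk2, Dkk3 and Fzd7, the block added Wnt9a between pluripotent cells and fibroblasts (-1.58, adjusted p = 0.046) and changed no other call. The comparison of the ES with the iPS line, added after the signals had been seen, gave 0 calls without the trend, with a pseudocount of 1, with a pseudocount of 20, without the filter and with any array left out.

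A common median moved the median of all genes by -0.42 against the adult fibroblasts, -0.35 against the pluripotent cells and -0.31 between secondary and primary neurospheres. Leaving out each array was also tried, after the data had been seen, on the 130 calls of the 6 pathway lists, and 53 passed in every refit. The causes of these losses were not tested. With 1 or 2 arrays a group, a gene that was not called cannot be taken as equal between groups.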
